A study of Mus musculus with 2 samples.

Results

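Bidirectional promoter peaks are accessible regions that serve the starts of 2 protein-coding genes at once. They were chosen among the ATAC-seq peaks of mouse regulatory T cells, a CD4 T cell lineage that depends on Foxp3 and holds other immune cells in check. ATAC-seq maps open chromatin through a transposase that cuts accessible DNA and tags it for sequencing. A peak of replicate 1 was taken if a peak of replicate 2 overlapped it by at least 1 bp and if it covered, or lay within 500 bp of, both starts of a divergent pair. A divergent pair is a pair of protein-coding genes on opposite strands, transcribed away from each other, with starts at most 1000 bp apart. In the annotation of the mm10 genome build 1200 such pairs were found, and 1083 of the 68832 peaks of replicate 1 met the rule.

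Many mammalian promoters initiate transcription in both directions, and in a divergent pair both directions yield a messenger RNA. The DNA between the starts is a shared nucleosome-depleted region, usually within a CpG island, where general factors such as ETS, NFY, NRF1 and SP family proteins bind. Divergent pairs are known for genes of basic cell functions such as DNA repair, mitochondrial translation and the histones.

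The series holds 2 libraries of 1 group, regulatory T cells of the C57BL/6NJ strain described as primary cells, with 72 hours in the entry names of both lists. The words ASTARR and insert also stand there, and the sources used here do not say what they mean. Both libraries carry the same donor identifier in the labels, so it was not established that they came from separate animals, and the spread between them may be technical. No treated, untreated or other control group is among the samples used here, and with 2 libraries of 1 group no test was made: regions are not replicates, and differences are given as values in each library.

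The cells' own markers were accessible. All 6 regulatory T cell genes examined (Foxp3, Il2ra, Ctla4, Ikzf2, Tnfrsf18 and Capg) and all 5 general T cell genes had a peak within 500 bp of a coding start in both libraries. None of 3 myeloid genes had one, and of 3 B cell genes Pax5 alone did. The lists held 68832 and 78178 peaks on chromosomes 1 to 19, X and Y. Of the replicate 1 peaks, 93.2% were overlapped in replicate 2. The sequencing depth behind the lists is unknown, since they hold no read counts.

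The DNA between the starts is printed for some pairs as examples, most of them chosen for the matches they hold. Of 449 such stretches searched, 15.6% held an ETS match and 14.0% an NFY match. The sequences below are read on the plus strand of GRCm38, the assembly of mm10, from the base after the start of the gene on the minus strand to the base before the start of the gene on the plus strand. Capitals mark matches to the motifs searched: ETS (CCGGAAG), NFY (CCAATNAG), SP and KLF (GGGCGG), CRE (TGACGTCA), E2F (TTTCCCGC), BANP (TCTCGCGA) and the TATA box (TATAAA), each on either strand. The first set shows promoters in which ETS matches lie between the starts, the motif whose share differed most in percentage points from one-gene promoters. Kars and Terf2ip encode a lysyl-tRNA synthetase and a telomere protein (chr8:112011324-112011397). Trmt6 and Mcm8 encode a tRNA methyltransferase subunit and a DNA helicase of recombination repair (chr2:132816056-132816140). Zcchc17 and Snrnp40 encode a zinc finger protein and a spliceosome component (chr4:130359944-130360131). Park7 encodes the oxidative stress protein DJ-1 and Tnfrsf9 the costimulatory receptor 4-1BB (chr4:150914438-150914561).
Kars/Terf2ip: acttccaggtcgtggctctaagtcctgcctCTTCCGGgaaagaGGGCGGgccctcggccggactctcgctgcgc
Trmt6/Mcm8: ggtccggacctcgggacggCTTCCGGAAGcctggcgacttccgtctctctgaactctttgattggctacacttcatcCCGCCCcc
Zcchc17/Snrnp40: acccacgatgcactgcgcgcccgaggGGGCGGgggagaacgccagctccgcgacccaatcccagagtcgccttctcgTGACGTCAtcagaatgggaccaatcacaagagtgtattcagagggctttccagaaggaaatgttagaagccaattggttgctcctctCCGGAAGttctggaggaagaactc
Park7/Tnfrsf9: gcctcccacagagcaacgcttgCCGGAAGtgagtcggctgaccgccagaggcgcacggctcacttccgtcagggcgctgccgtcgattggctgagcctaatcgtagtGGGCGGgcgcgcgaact

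The next set holds NFY matches, which were more frequent in stronger members. Mrps12 and Sars2 encode a mitochondrial ribosomal protein and the mitochondrial seryl-tRNA synthetase (chr7:28741821-28741991). Tbccd1 and Dnajb11 encode a centrosome protein and a chaperone of the endoplasmic reticulum (chr16:22857670-22857844). Mrpl32 and Psma2 encode a mitochondrial ribosomal protein and a proteasome subunit (chr13:14613166-14613239). Hist1h2ac and Hist1h2bc encode histones H2A and H2B (chr13:23683949-23684198), and their spacer was the only one of these 4 with a TATA box match.
Mrps12/Sars2: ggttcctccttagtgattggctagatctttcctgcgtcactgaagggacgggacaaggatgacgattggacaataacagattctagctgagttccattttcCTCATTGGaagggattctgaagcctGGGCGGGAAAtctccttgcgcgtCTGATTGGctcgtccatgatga
Tbccd1/Dnajb11: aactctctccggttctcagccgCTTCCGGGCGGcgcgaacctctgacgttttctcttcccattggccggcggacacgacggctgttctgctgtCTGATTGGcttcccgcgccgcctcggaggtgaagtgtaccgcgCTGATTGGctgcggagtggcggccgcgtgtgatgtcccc
Mrpl32/Psma2: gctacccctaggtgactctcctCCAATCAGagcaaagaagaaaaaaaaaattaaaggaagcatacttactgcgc
Hist1h2ac/Hist1h2bc: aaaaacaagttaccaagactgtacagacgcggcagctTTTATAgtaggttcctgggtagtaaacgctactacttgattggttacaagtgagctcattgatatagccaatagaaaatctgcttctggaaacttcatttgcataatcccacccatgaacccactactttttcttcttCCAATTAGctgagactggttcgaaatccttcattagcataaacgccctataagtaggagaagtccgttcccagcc

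The last set shows 3 spacers for contrast. Between Pole3, a DNA polymerase epsilon subunit, and 4933430I17Rik lies a BANP match (chr4:62525069-62525368). The strong promoter of Tctn3, a transition zone protein of cilia, and Entpd1, the ectonucleotidase CD39, holds none of the 15 motifs between its starts (chr19:40612234-40612365). Nor does that of Ifit1bl2 and Ifit1, an interferon-induced gene (chr19:34640744-34640870). The NFY letters searched are narrow, however. The Tctn3 and Entpd1 spacer holds their opening CCAAT on both strands, without the letters that complete the motif, so it does not lack CCAAT boxes.
Pole3/4933430I17Rik: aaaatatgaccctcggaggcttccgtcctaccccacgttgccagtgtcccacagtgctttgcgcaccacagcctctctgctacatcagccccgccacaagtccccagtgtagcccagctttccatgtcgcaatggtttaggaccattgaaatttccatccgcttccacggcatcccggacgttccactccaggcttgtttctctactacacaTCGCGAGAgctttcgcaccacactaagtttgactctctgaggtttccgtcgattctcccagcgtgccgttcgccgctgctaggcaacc
Tctn3/Entpd1: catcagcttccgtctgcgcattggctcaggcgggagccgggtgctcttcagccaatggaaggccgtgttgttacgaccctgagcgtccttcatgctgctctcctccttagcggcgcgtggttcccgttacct
Ifit1bl2/Ifit1: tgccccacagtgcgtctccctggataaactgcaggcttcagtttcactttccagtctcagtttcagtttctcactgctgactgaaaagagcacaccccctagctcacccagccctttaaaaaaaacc

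Nearly all divergent promoters were accessible in these cells. Of the 1200 pairs, 1122 (93.5%) had a peak near both starts in both libraries. In 13 pairs (1.08%) such a peak was found in replicate 2 alone, which has the longer list. In 12 (1.00%) no single peak lay near both starts although 1 start or each had its own, and 53 (4.42%) had no peak near either start in either library. Smyd1 with Cd8b1, which encodes the beta chain of the CD8 receptor, was among the 13. Each of the 1122 pairs was served by exactly 1 member peak. Conversely 1045 member peaks lay near 1 pair, 37 near 2 pairs and 1 near 3 pairs, the last at Ubr7, which faces Gon7 and the predicted genes Gm28051 and Gm20604.

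Taken gene by gene, 2227 of the 2360 genes in divergent pairs (94.4%) had a replicated peak within 500 bp of the start. Among the 19578 protein-coding genes outside such pairs the share was 53.6%. One peak can count for both genes of a pair, so the genes of a pair are not separate observations. In replicate 1 alone the shares were 94.4% and 54.0%, and in replicate 2 alone 95.2% and 55.1%, so the libraries differed by far less than the gene sets did.

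Divergent starts were richer in G and C than other starts, with a median GC content of 63.2% against 57.7% within 100 bp of the start, and GC content went with accessibility. Within classes of GC content the genes of pairs had the larger share of accessible starts in each of the 5 classes. Below 45% GC, 38 of 51 genes of pairs (74.5%) had a peak, against 9.34% of 2944 other genes. From 45 to 55% GC the shares were 85.7% and 26.9%, and from 55 to 65% GC 94.8% and 64.1%. From 65 to 75% GC they were 97.6% against 89.1%, and at 75% GC or more 99.5% against 91.3%. The difference was thus widest where GC content was low and narrowest where it was high. The other genes include nearly all of the 1135 olfactory receptors, of which 0.529% had such a peak. No comparison without them was made.

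**Figure D1:**
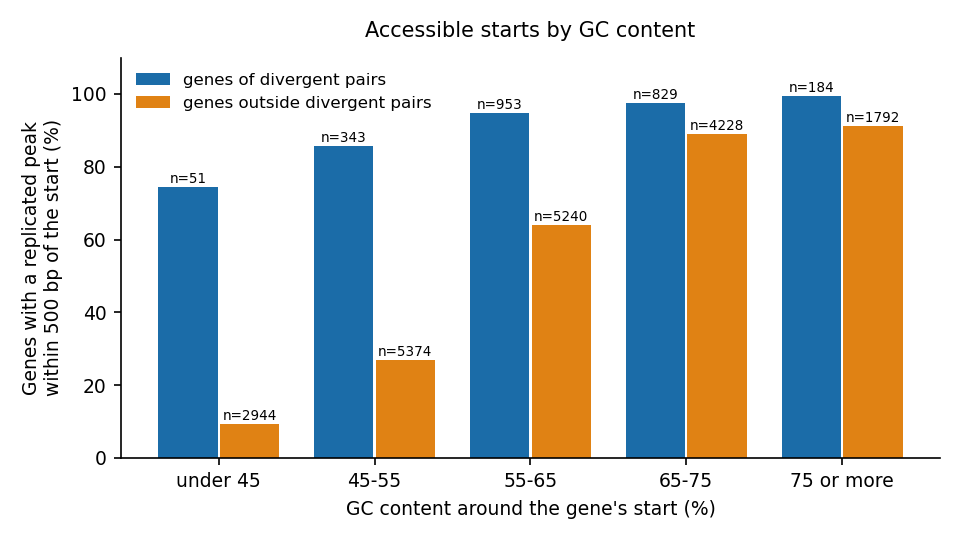
Share of protein-coding genes with a replicated peak within 500 bp of the start (vertical axis, %), by GC content within 100 bp of the start (horizontal axis, %), for genes of divergent pairs (blue) and other genes (orange), with the number of genes above each bar. The blue bars range from 74.5 to 99.5% and the orange bars from 9.34 to 91.3%.

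The distance between the starts made little difference up to 500 bp. A member peak was found for 414 of 445 pairs whose 5′ ends overlap (93.0%), for 97.1% of 313 pairs with starts 0 to 100 bp apart and for 94.2% of 206 pairs at over 100 to 200 bp. The shares were 93.0% of 100 pairs at over 200 to 300 bp and 97.0% of 66 pairs at over 300 to 500 bp. Only 53 of 70 pairs at over 500 to 1000 bp (75.7%) had one. Of the other 17, 7 had no peak near either start and 5 had a peak near both in replicate 2 alone. In the last 5 no single peak lay near both starts, although 1 start or each had its own. The middle of the pairs in this class had a median GC content of 52.5%, against 58.0 to 65.2% in the other classes, and its part in the difference was not tested. At the limit of the rule, values on both sides varied. Just inside it, the peak of Ubap2l and 4933434E20Rik (992 bp) stood at signal percentiles of 81.9 and 79.5, and just outside, that of Znhit1 and Plod3 (1002 bp) stood at 80.7 and 79.1. Further pairs stood at 70.9 and 75.3 inside (Btf3l4 with Txndc12, 987 bp) and at 89.3 and 93.3 (Trub2 with Coq4, 1009 bp) and 60.0 and 59.3 (Sgsm2 with Tsr1, 1011 bp) outside. Of 35 pairs with starts more than 1000 and up to 1200 bp apart, 22 had a replicated peak near both.

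Member peaks were strong. The signal percentile ranks the deposited signal of a peak within its own library's list, from 0 for the weakest to 100 for the strongest. Its median over the members was 87.9 in replicate 1 and 88.8 in replicate 2. Over 10166 peaks at one-gene promoters, those near the start of exactly 1 protein-coding gene that is in no divergent pair, it was 80.0 and 81.8. Over 52713 replicated peaks with no coding start within 500 bp it was 47.7 and 53.7. The gap between members and one-gene promoters was larger than that between libraries. The deposited signal itself had a median of 12.8 in both libraries for members, against 11.0 and 11.1 for one-gene promoters.

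Weak members were rare. Among members, 43.5% in replicate 1 and 45.6% in replicate 2 stood in the strongest 10% of the list, against 30.7% and 32.5% of one-gene promoter peaks. In the weaker 50% of the list stood 6.19% and 4.34% of members, against 18.8% and 15.7% of one-gene promoter peaks. The interquartile range of the members ran from percentile 76.0 to 94.6 in replicate 1, and that of one-gene promoters from 58.4 to 92.3, so the upper ends were close and the difference lay mostly in the lower tail. One-gene promoters with a long noncoding gene starting divergently within 1 kb (1071 peaks) had medians of 82.5 and 83.3, between the others (9095 peaks, 79.6 and 81.6) and the members. In each of the 4 classes from 45% GC up the members were higher in both libraries. From 45 to 55% GC around the summit the medians in replicate 1 were 88.6 for 120 members and 68.0 for one-gene promoters, from 55 to 65% GC 89.6 and 83.4, and from 65 to 75% GC 87.1 and 82.3.

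All 1083 replicate 1 peaks near both starts of a pair were overlapped in replicate 2. At one-gene promoters 10166 of 10261 (99.1%) were. The members' signals ranked alike in both libraries (Spearman's rho 0.958 over 1083 peaks, a description across regions of the same libraries). For one-gene promoters rho was slightly higher, at 0.972 over 10166 peaks. The members' summits moved by a median of 4 bp between libraries, against 13 bp at one-gene promoters.

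Members were also wide, with a median width of 1328 bp in replicate 1 and 1383 bp in replicate 2, against 1188 and 1262 bp at one-gene promoters. The rule asks a peak to reach near both starts, so width is given as a description. Members with starts 0 to 100 bp apart had medians of 1298 and 1359 bp, and one-gene promoters with a divergent noncoding start 1321 and 1350 bp. Width hardly followed the distance between the starts (Spearman's rho 0.126 over all members), except that the 48 members at over 500 to 1000 bp were widest, at medians of 1672 and 1722 bp, and weakest, at signal percentiles of 77.0 and 80.6. Strong members were narrower than weak ones: the median width in replicate 1 was 1484, 1534, 1354 and 1134 bp in 4 groups of 270 or 271 members in order of rising mean signal percentile.

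**Figure D2:**
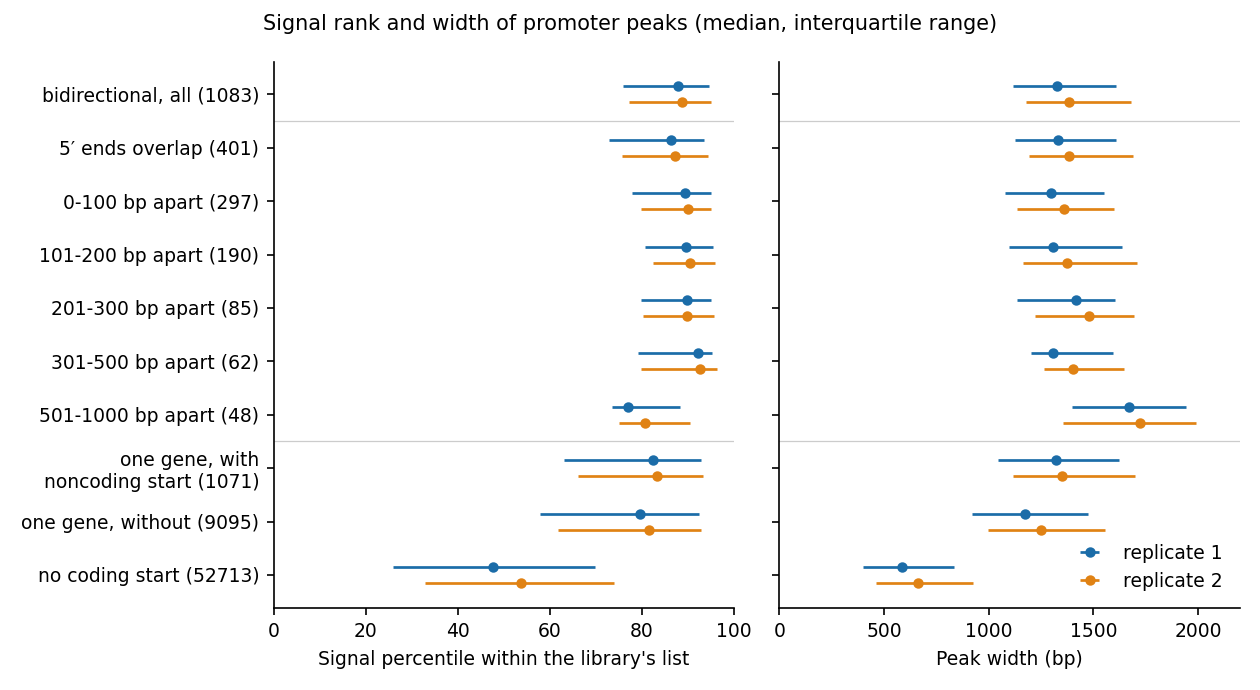
Median (point) and interquartile range (line) of the signal percentile within each library's list (left) and of the peak width in bp (right), for replicate 1 (blue) and replicate 2 (orange), with the number of peaks in parentheses. Members stand at median percentiles of 87.9 and 88.8, and those with starts over 500 to 1000 bp apart are the widest and have the lowest median percentile among the spacing classes.

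The summit, the point of strongest signal in a peak, lay a median of 94.5 bp from the midpoint of the starts, about as far as the summit of a one-gene promoter lay from its start (95.0 bp). The distance was 175 bp where the 5′ ends overlap, 60.0 bp at 0 to 100 bp and 333 bp at over 500 to 1000 bp. It fell between the starts, ends included, in 487 members (45.0%) in replicate 1 and in 44.7% in replicate 2, and in the rest it was about as often inside the gene on the minus strand (28.3%) as inside that on the plus strand (26.8%). The share between the starts depended on the room there. It was 24.2% and 21.5% for starts 0 to 100 bp apart, 55.3% and 58.9% at over 100 to 200 bp, 77.6% and 72.9% at over 200 to 300 bp, and 74.2% and 82.3% at over 300 to 500 bp. At over 500 to 1000 bp it was 58.3% and 62.5%, and where the 5′ ends overlap the summit lay in the overlap in 42.4% and 41.1%. The peak itself covered both starts in 1031 members (95.2%), 1 start in 46 and neither in 6.

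Seen from a single gene, the place of the summit depended on whether the genes of the pair overlap. At one-gene promoters it lay a median of 16 bp downstream of the start in replicate 1 and 19 bp in replicate 2, and upstream in 44.9% and 44.1%. In the 682 members whose genes do not overlap it lay upstream of the plus-strand gene in 72.4% and 73.2%, at a median position of -65 and -71 bp. For the minus-strand gene it lay upstream in 73.9% and 73.6%, at -73.5 and -68 bp. In the 401 members whose 5′ ends overlap the order was the reverse: the summit lay upstream of the plus-strand gene in 31.9% and 30.2% and of the minus-strand gene in 25.7% and 28.7%. Over all 1083 members it lay upstream in 57.4% and 57.2% for the plus-strand gene and in 56.0% for the minus-strand gene in replicate 1. In a pair without overlap a summit between the starts is upstream of both, and in a pair with overlap a summit in the overlap is downstream of both. The reversed order is thus partly set by how the gene records lie, and the 2 genes of a pair are not independent here.

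**Figure D3:**
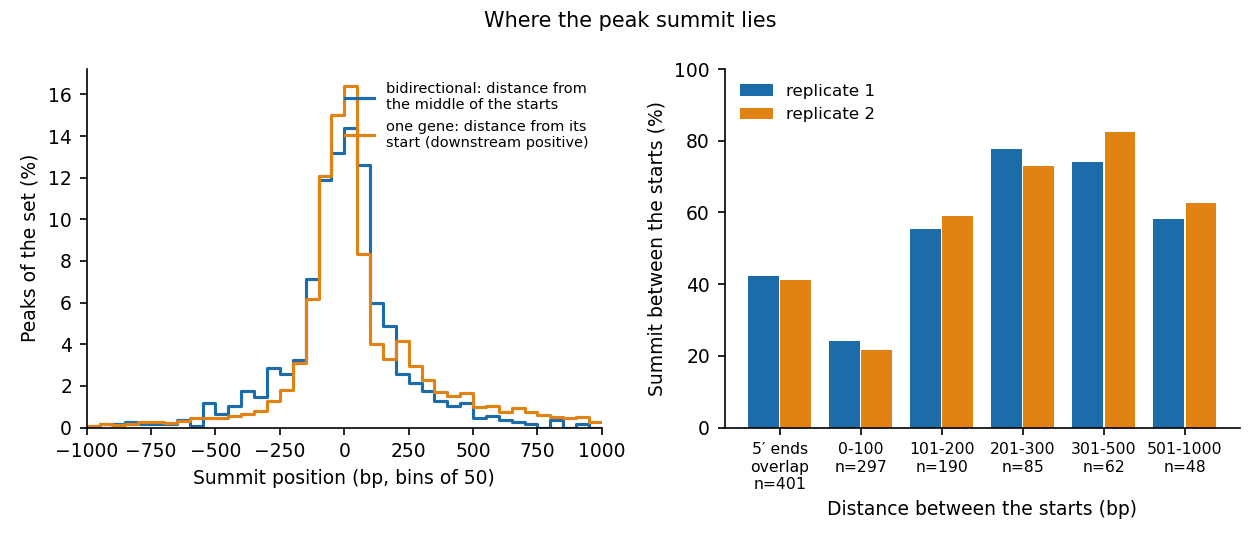
Left, position of the summit in replicate 1 in bins of 50 bp, relative to the middle of the starts for the 1083 members (blue) and to the start for 10166 one-gene promoters (orange, downstream positive), as percent of each set. Right, percent of members with the summit between the starts, by distance between the starts, in replicate 1 (blue) and replicate 2 (orange): the share is lowest at 0 to 100 bp (24.2 and 21.5%) and exceeds 70% in both libraries from over 200 to 500 bp.

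The DNA within 100 bp of the summits of members was rich in motifs of general promoter factors. ETS matches stood in 273 members (25.2%), against 13.5% of one-gene promoter peaks and 4.37% of all 64172 replicated peaks. ETS factors are a large family with both ubiquitous members, such as GABP, and members of blood cells, such as ETS1, and the letters do not tell them apart. BANP matches, the element of a factor that binds unmethylated promoters, stood in 3.88% against 1.53% and 0.362%. NFY matches stood in 11.8% against 8.39% and 3.63%. They stood in 13.8% of members whose genes do not overlap but in 8.48% of those whose 5′ ends overlap, about the share of one-gene promoters. Matches of YY1 (AAGATGGC), a factor that also binds just inside genes, stood in 5.63% against 3.36% and 1.59%. NRF1 (CGCATGCG), a regulator of nuclear genes for mitochondrial proteins, was at 3.51% against 2.32% and 0.625%. The ZNF143 and GFY motif (ACTACAATT) was rare, at 1.02% against 0.443% and 0.167%.

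The SP and KLF box stood in 60.5% of members and 59.7% of one-gene promoters, against 11519 of all 64172 replicated peaks, and the E-box (CACGTG) in 7.76% and 7.02%. CRE matches were somewhat more frequent in members, at 3.23% against 2.51%, as were those of E2F at 1.75% against 1.35% and the rare ones of RFX (GTTGCCATG) at 0.739% against 0.433%. Motifs of lymphocyte enhancers were scarcer than in the list as a whole. AP-1 (TGANTCA), the element of Fos and Jun proteins, was found in 2.31% of members and 3.72% of one-gene promoters, against 18.6% of all replicated peaks. RUNX (TGTGGTT), the element of a family needed for T cell development, was found in 1.29%, 2.46% and 8.81%. The TATA box stood in 2.40%, 2.49% and 6.99%, and CTCF (AGGGGGCGC) in 1.66%, 2.14% and 1.42%.

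**Figure D4:**
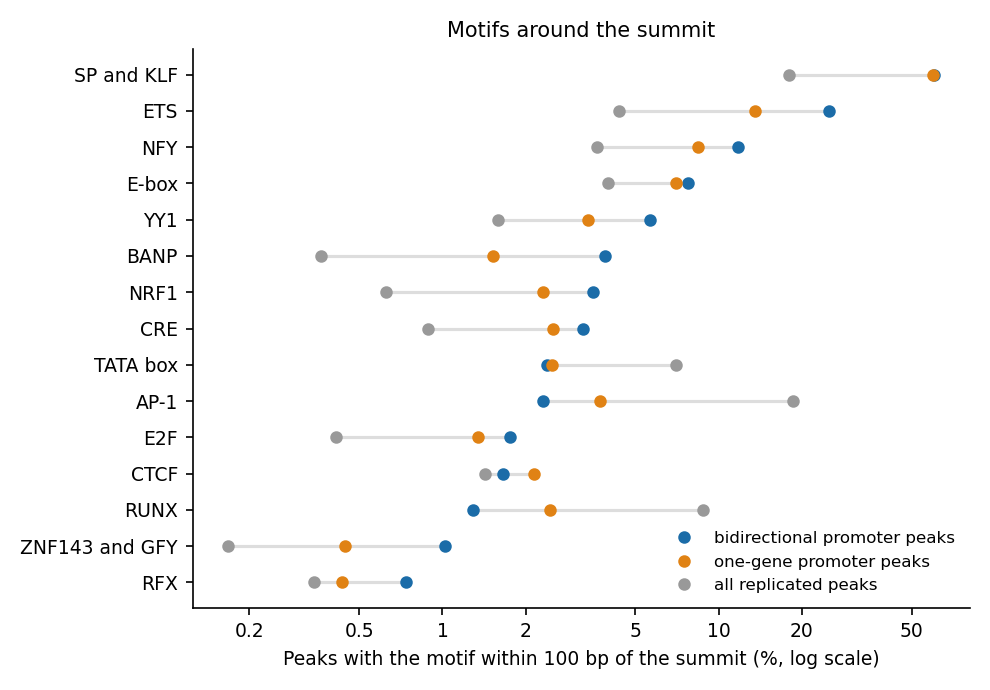
Share of peaks with each of 15 motifs within 100 bp of the summit (horizontal axis, %, log scale) among bidirectional promoter peaks (blue), one-gene promoter peaks (orange) and all replicated peaks (grey). ETS stands at 25.2, 13.5 and 4.37% in this order, and AP-1 at 2.31, 3.72 and 18.6%.

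By GC content, ETS matches stood in 12.5% of members against 7.78% of one-gene promoters from 45 to 55% GC, in 29.0% against 17.7% from 55 to 65% GC and in 27.8% against 14.1% from 65 to 75% GC. At 75% GC or more the shares were close, 9.09% of 66 members against 7.96%. NFY matches stood in 19.2% of members against 11.5% of one-gene promoters from 45 to 55% GC. The NFY shares were closer from 55 to 65% GC (13.5% against 11.5%) and from 65 to 75% GC (8.47% against 7.08%). At 75% GC or more they were 4.55% against 2.46%. Members also held more kinds of promoter motif at once. Of the 11 kinds other than AP-1, RUNX, CTCF and the TATA box, none was found in 18.1% of members and 26.9% of one-gene promoters, 2 in 28.2% and 20.1%, and 3 or more in 7.11% and 3.54%. The median GC content around the summit was slightly lower in members than at one-gene promoters (64.2% against 65.7%), while the ratio of observed to expected CpG was higher (0.882 against 0.827).

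Within the 682 members whose genes do not overlap, motifs differed in where they stood. Of the bases searched, 41.8% lay between the starts. Among 103 NFY matches 68.9% lay between the starts, as did 66.0% of 47 BANP matches and 56.7% of 764 SP and KLF matches. ETS matches were near the share of bases searched (44.4% of 198), with the rest inside the genes. YY1 matches stood apart, with 5 of 42 (11.9%) between the starts and 37 inside a gene, where 25 (67.6%) read in the direction of that gene. Because a member can hold several matches of one motif, these are counts of matches and not of promoters.

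Stronger members held more NFY and fewer TATA box matches. Over the same 4 groups, from lowest to highest mean signal percentile, NFY stood in 7.38%, 10.7%, 13.7% and 15.5% of members. The TATA box stood in 4.43%, 2.58%, 2.22% and 0.369%. Only 26 members in all held a TATA box match, so its shares rest on few peaks. ETS was lowest in the lowest group (19.9%) and at 26.2%, 27.4% and 27.3% in the others. The summit lay between the starts in 39.5%, 42.4%, 43.3% and 54.6%. Median GC content was 64.7% in the lower 3 groups and 62.7% in the highest.

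Genes of basic cell functions stood in divergent pairs more often than genes at large. Of all 21938 protein-coding genes 10.8% belong to a divergent pair and 10.1% to one with a member peak. Among 78 mitochondrial ribosomal proteins 33 (42.3%) belong to a pair, and all 33 to one with a member peak. The shares were 36.6% of 82 DNA repair genes, 36.0% of 86 subunits of oxidative phosphorylation, 33.3% of 45 splicing factors and 30.2% of 63 centrosome and cilium proteins. They were 28.8% of 104 RNA polymerase subunits and general transcription factors, 27.8% of 79 chaperones, 27.5% of 51 DNA replication genes, 27.0% of 37 aminoacyl-tRNA synthetases and 25.6% of 39 proteasome subunits. Cytosolic ribosomal proteins, at 15 of 80 (18.8%), were closer to the share of all genes. Being in a pair is a property of the annotation and not of these cells, while the member peaks show which of the pairs were accessible here.

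The DNA repair genes had the strongest members among the lists, with a median mean signal percentile of 93.9 over 30 distinct peaks, against 88.4 over all members. All 32 pairs were accessible, close to the 93.5% of all pairs. The peak of Pinlyp and Xrcc1, the scaffold of single-strand break repair, stood at 99.8 and 99.6, but it lay inside Xrcc1, covered neither start and had its summit 745 bp downstream of the Xrcc1 start. Xrcc4, the partner of DNA ligase IV, with Tmem167 stood at 98.8 and 98.6, and Mre11a, the nuclease of the MRN complex, with Ankrd49 at 98.6 and 97.2. Ercc8, of transcription-coupled repair, with Ndufaf2 stood at 97.1 and 98.3. Pairs long known in the field were accessible too. Atm, the kinase of the double-strand break response, and Npat, a coactivator of histone genes, have starts 307 bp apart, and their peak stood at 93.5 and 94.7 with the summit between the starts. The peak of Brca1 and Nbr1 (194 bp apart) stood at 81.9 and 84.8, and its summit lay 609 bp inside Nbr1, a selective autophagy receptor. Xpc, which recognises ultraviolet lesions, with Lsm3 (40 bp apart) stood at 96.8 and 96.2.

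Genes of the mitochondrion were nearly as strong. The median over the 32 peaks of mitochondrial ribosomal proteins was 92.0. All 32 pairs were accessible, again close to the 93.5% of all pairs. Mrpl44 with Wdfy1 stood at 99.7 and 99.9, Mrpl32 with Psma2 at 99.4 and 99.6 and Mrps18c with Helq, a DNA helicase, at 99.2 and 98.9. Mrps12 and Sars2, whose spacer is printed above with its NFY, SP and E2F matches, both serve translation in the mitochondrion and stood at 98.4 and 96.6. Of the 32 pairs with a subunit of oxidative phosphorylation 31 were accessible, with a median of 91.5 over 30 peaks. Cox4i1, a cytochrome oxidase subunit, with Emc8 stood at 82.2 and 82.9.

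Lists of replication, transcription and protein turnover lay near all members. Over distinct peaks the median was 87.7 for DNA replication genes (14 peaks), 87.6 for RNA polymerase subunits and general transcription factors (30) and 88.0 for proteasome subunits (9), against 88.4 over the 1083 members. Among the strongest of these, Trmt6 and Mcm8 stood at 99.1 and 99.6, Orc1, of the origin recognition complex, with the splicing factor Prpf38a at 97.2 and 97.7, and Mcm4, of the replicative helicase, with Prkdc, the catalytic subunit of DNA-PK, at 94.2 and 96.4. The proteasome gene Psmb1 and Tbp, the TATA-binding protein, have starts 137 bp apart and a weaker peak, at 56.5 and 66.2, that was narrow (795 and 872 bp). The mitochondrial chaperonin genes Hspd1 and Hspe1 stood at 82.1 and 80.0, and the heat shock genes Hspa1a and Hspa1l, at 99.6 and 99.8, were among the 10 strongest pairs.

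Histone genes differed from the rest. Of 67 replication-dependent histone genes 27 (40.3%) belong to 14 pairs, 13 of them of histone with histone, and 11 pairs were accessible. These 11 pairs shared 10 peaks, with a median mean signal percentile of 61.0 and a median width of 2040 bp in replicate 1, against 88.4 and 1328 bp over all members. The strongest were Hist1h2ac and Hist1h2bc, at 76.9 and 79.0 with widths of 2101 and 2144 bp, and Hist1h2bh and Hist1h3f, at 73.0 and 74.5 with 2354 and 2368 bp. The weakest, Hist1h2bf and Hist1h2ad, stood at 23.7 and 23.4 and was narrow, at 748 and 854 bp. The 3 pairs with no peak were Hist1h2bq with Hist1h2ao, Hist1h2ap with Hist1h2br and Hist1h2ba with Hist1h2aa. Histone genes of one type are near copies of each other, so reads there can be lost or split by the mapping, and the peaks of the cluster are uncertain to that extent. Cytosolic ribosomal proteins were also lower than most lists, with a median of 67.4 over 14 peaks, although Rps27 with Rab13 stood at 92.3 and 88.7.

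**Figure D5:**
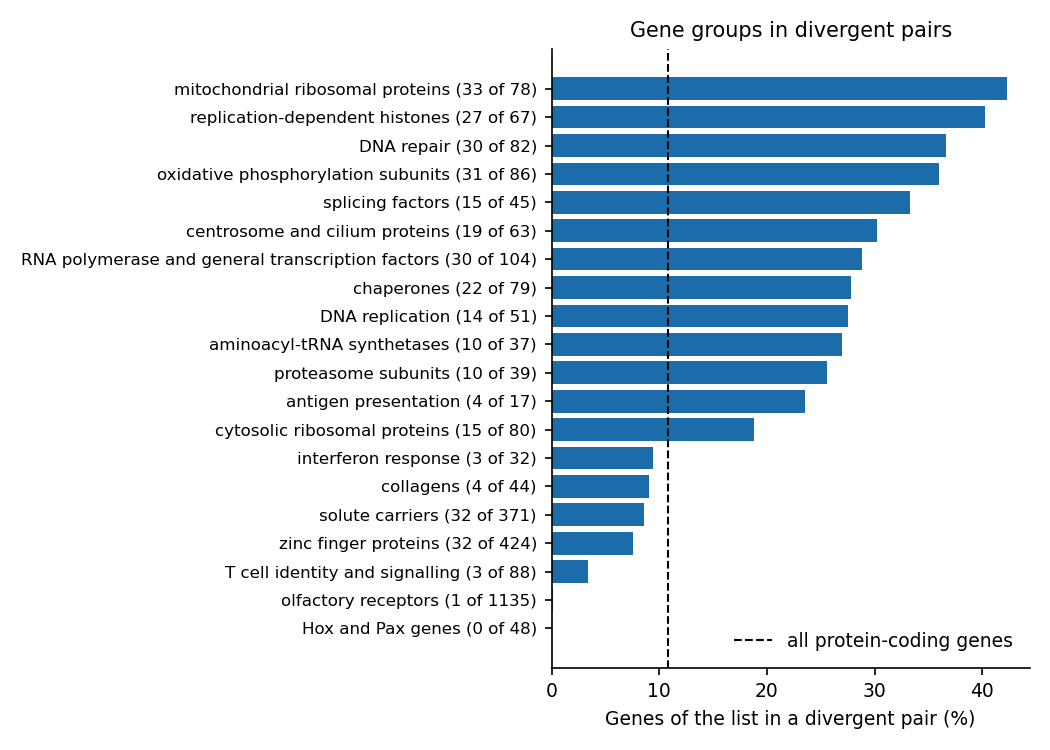
Percent of the genes of each list that belong to a divergent pair, with the number of genes in parentheses, against all protein-coding genes (dashed line, 10.8%). Mitochondrial ribosomal proteins (42.3%) are highest, and T cell genes (3.41%), olfactory receptors and the Hox and Pax genes lie under the line.

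Few genes that mark T cells belong to such pairs. Of 88 genes of T cell identity and signalling 3 (3.41%) do, although 81 of the 88 (92.0%) had a replicated peak within 500 bp of the start, against 57.9% of all protein-coding genes. Entpd1 faces Tctn3 at 133 bp and shares one of the strongest members, with signals of 17.6 and 17.8 and percentiles of 99.3 and 99.4, its summit between the starts. Tnfrsf9 faces Park7 at 125 bp and its peak stood at 52.5 and 54.2, with the summit 58 bp inside Park7 and a width of 1829 and 1904 bp. Foxp3, the defining transcription factor of these cells, faces Ppp1r3f in the annotation with gene records that overlap by 639 bp. The Foxp3 start used here is the outermost of its gene record, so the values need not describe other starts of the gene. The peak near both starts stood at 41.2 and 54.1, with its summit 887 bp inside the Foxp3 record and upstream of the Ppp1r3f start. In replicate 1 it did not cover the Foxp3 start, and its width was 1377 bp there and 2533 bp in replicate 2, which is the larger difference in width among these 3 pairs.

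Of 17 antigen presentation genes 4 (23.5%) belong to a divergent pair, against 10.8% of all protein-coding genes. The 4 pairs of these genes share 3 member peaks, with a median of 89.6. All 4 pairs were accessible, against 93.5% of all divergent pairs. Psmb9, an immunoproteasome subunit, and Tap1, of the peptide transporter, stood at 91.3 and 87.9. Rfxank, a subunit of the factor that drives class II genes, faces both Borcs8 and Mef2b and stood at 94.1 and 95.2, and Pdia3, of the peptide loading complex, with Catsper2 at 72.5 and 75.7. Of 32 interferon response genes 3 belong to a pair. Ifit1bl2 and Ifit1 stood at 89.0 and 85.5 with a narrow peak of 769 and 768 bp. Dtx3l and Parp9, partners in ubiquitin ligation, stood at 77.0 and 77.7 with the summit 1368 bp inside Parp9. Zinc finger proteins (7.55% of 424) and solute carriers (8.63% of 371) lay near or under the share of all genes, and 1 of 1135 olfactory receptors and none of 48 Hox and Pax genes belong to a pair.

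Of 50 pairs listed as candidates from general knowledge, 29 met the definition in this annotation and 28 of those had a member peak. The exception was Col4a4 and Col4a3, collagens of the basement membrane with starts 72 bp apart, which had no peak within 76572 bp of either start. The related pair Col4a1 and Col4a2 was accessible but among the 5 weakest, with signals of 3.34 and 2.67 and percentiles of 12.0 and 6.90. The weakest of all was Duox2 and Duoxa2, an epithelial oxidase and its maturation factor, at 4.50 and 1.71. Nr2e1, a nuclear receptor of neural stem cells, with Ostm1 stood at 7.93 and 5.97, and Shox2, a homeobox gene, with Rsrc1 at 9.62 and 10.3. Tk1, the thymidine kinase of S phase, with Afmid was weak as well, at 13.6 and 18.1, in a peak 1774 and 1629 bp wide.

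At the other end, the strongest members were 2700097O09Rik with Srp54a, of the signal recognition particle, at signals of 19.5 and 20.6, and 6430550D23Rik with Ergic3, of early secretion, at 19.5 and 19.0. Fam161b with Coq6, of coenzyme Q synthesis, reached 19.5 and 18.7. The 5 widest members were not among the strongest. Nek8 with Tlcd1 measured 3160 and 3148 bp and stood at percentiles of 37.9 and 43.8. Wrap53 with Trp53, the p53 gene, measured 3000 and 3027 bp and stood at 56.1 and 58.8, with the summit 893 bp inside Wrap53.

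The 53 pairs with no peak were poorer in CpG. The middle of these pairs had a median GC content of 55.7%, against 63.7% for pairs with a member peak, and an observed to expected CpG ratio of 0.375 against 0.866, and 9 of the 53 lie on the X chromosome, which holds 30 of the 1200 pairs. Genes known from germ cells, such as Smc1b with Ribc2 and Tssk3 with Fam229a, from the liver, such as Bhmt2 with Dmgdh, and from neurons, such as Trpc5 with Rtl4, were among them. In 18 of the 53 pairs another coding start of at least one of the genes lay within 500 bp of a peak. Rnf151 and Rps2, a cytosolic ribosomal protein, are an example: the outermost start of Rps2 was 1510 bp from a peak and another of its starts was inside one. Ccnt1, Psmd5, Stx4a and Trim28, which are expressed in most cells, were likewise without a peak at the outermost start and with one at another.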

How the data were processed

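Each library had 1 deposited list of peaks in narrowPeak form on mm10. The deposited signal has no stated scale, and the deposited score and −log10 p and −log10 q values are those of the authors' caller. Aligner, caller and any shift for the transposase are not stated in the labels or files. Signal and −log10 q served to rank or filter peaks within a list, and the score and −log10 p were not used. The lowest −log10 q was 1.00 in both lists, and 71 and 84 peaks outside chromosomes 1 to 19, X and Y were left out.

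Starts came from the gene records of GENCODE release M21 (21938 protein-coding genes), which give the outermost start of a gene. Pairs had starts within 1000 bp, 5′ ends could overlap, and nested genes were left out. Of the 1200 pairs, 445 had overlapping 5′ ends, and 1196 were distinct by symbol. Values around summits and starts used 100 bp to either side. Where a peak lay near several pairs, that with the closest starts gave its geometry.

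The members, the 15 motifs and the 20 gene lists were chosen with earlier results of these data known. Pairs were named by rule: known pairs, the 10 strongest and 5 weakest, the 5 widest, pairs of T cell, antigen presentation and interferon genes, up to 4 per other list, peaks of several pairs, and the 10 closest pairs with no peak. Other pairs without a member peak, those at the limit of the rule and the marker genes were named after their values were seen. A list's median is over the mean percentile of both libraries and over distinct peaks. Not every pair named by this rule is reported here. No test was made. Python 3.11.15 with numpy 2.4.6 and pandas 2.3.3 was used, and the procedures were tested on simulated data.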

Additional observations from a re-analysis of the deposited data

How the results depend on the processing

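No paired analysis was possible because the series holds 1 group. The labels' grouping allowed no test, so an alternative is read against 1 SD between the values of each library alone, or within 1.5 times for the count of members. Leaving out one library's list gave 1083 to 1096 members, 93.5 to 94.6% of pairs, a median signal percentile of 87.9 to 88.7, a width of 1328 to 1382 bp and a summit between the starts in 44.3 to 45.0%. The count fell to 687 with pairs whose 5′ ends do not overlap, a narrower set by construction. The share of pairs moved to 92.6% where each peak had to share at least 50% of its length, 89.0% where it had to cover both starts, 95.1% with 1000 bp from each start, 95.6% with starts within 300 bp, and 94.4% without genes of Gm or Rik symbols, an alternative added after seeing the data. With replicate 2 as the base list the median percentile was 88.7, the width 1383 bp and the summit share 44.4%. The percentile was 89.3 without overlapping ends and 89.4 within 300 bp. The summit share was 45.9% for covered starts, 43.7% at 1000 bp, 41.3% with any coding transcript start, 46.7% without overlapping ends and 39.8% within 300 bp. In all 11 alternatives the share of accessible pairs, the signal and the width of members stood above those of genes and peaks outside pairs. GC content moved to 63.7% with a −log10 q of at least 5 and without overlapping ends. ETS, NFY and BANP matches stood in 15.9%, 6.93% and 2.49% with 50 bp to either side, where less sequence is searched, in 25.8%, 12.4% and 4.06% at replicate 2 summits, and in 23.3%, 13.7% and 4.22% without overlapping ends; in all 4 alternatives each was more frequent than at one-gene promoters, while the order of members and one-gene promoters changed in 2 for the SP and KLF box, in 1 for the E-box and in 1 for the TATA box. The unknown depth limits what the absence of a peak can show.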
